A study of Mus musculus with 56 samples.

Results

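The comparison described here set the late effect of internal 90Sr on blood gene expression against the early effect. It used 56 of the 56 arrays of the series, 32 from days 4, 7 and 9 and 24 from days 25 and 30. All mice were C57BL/6, between 10 and 12 weeks old on arrival and held in quarantine for 14 days before they were randomized by body weight. Irradiated mice received 200 kBq of 90Sr chloride, with 85Sr as a tracer, in the tail vein, control mice received the saline vehicle, and each day had a control group of its own. The 10 groups held 4 mice each at day 4 and 6 mice each at the later days, and every array measured the whole blood RNA of 1 mouse, taken by cardiac puncture, after globin transcripts had been reduced. No allele was altered in any group. Mice of different days are different animals, so no mouse was followed over time.

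The effect at a day is the mean log2 signal of the irradiated mice less that of the controls of the same day. The early effect is the mean of the effects at days 4, 7 and 9, the late effect is the mean of those at days 25 and 30, and their difference, late minus early, is the quantity tested. Levels are log2 signals relative to the median of each array, so a level of 0 is the signal of the middle spot.

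90Sr follows calcium into bone and stays there, and the beta particles it emits irradiate the marrow over weeks. Blood RNA comes mostly from white cells, reticulocytes and platelets that the marrow supplies, and lymphocytes, B cells above all, are among the most radiosensitive of them. DNA damage activates the transcription factor p53, whose targets stop the cell cycle, repair DNA or start apoptosis. From RNA of blood taken as a whole, fewer cells of a type and less RNA per cell cannot be told apart. The study also counted cells on blood smears by hand. It reported that the counts of irradiated mice did not differ significantly from those of controls on any day. Those counts were not used here.

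The arrays were laid out on 14 slides of 4 arrays, scanned on 7 days, and this layout is not the same for early and late. Of the 6 irradiated arrays at day 30, replicates 3, 4, 5 and 6 shared 1 slide that was scanned on another day than the day 30 controls and replicates 1 and 2. At day 7, irradiated replicates 2, 3, 4 and 5 were likewise scanned on another day. At day 4 each group filled a slide of its own, and at each of days 7, 9, 25 and 30 a single slide held 2 control and 2 irradiated arrays, which gives 16 arrays on 4 slides with both groups. For the other arrays slide and group cannot be told apart. The results below are therefore given with all arrays, without the 4 day 30 arrays of the other scan day, and within slides, where only arrays that shared a slide contribute and day 4 drops out.

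The response to 90Sr was for the most part the same late as early. Across the 18876 genes tested, the early and the late effect correlated with Pearson's r = 0.87 (Spearman's rho = 0.846), and with r = 0.899 without the 4 arrays and 0.848 within slides. Genes on an array are not independent replicates, so these are descriptions of the profile. Of the 3031 genes called lower with at least a 2-fold early effect, 3010 (99.3%) were called lower late and 2791 (92.1%) were still at least 2-fold lower, against 38% of all genes called lower late. Their median effect was -1.25 early and -1.42 late on the log2 scale, and the late median was -1.30 without the 4 arrays. Within slides the same medians were -1.38 and -0.97. Of the 392 genes called higher with at least a 2-fold early effect, 272 (69.4%) were called higher late, against 38.4% of all genes, and 110 (28.1%) were still at least 2-fold higher. Their median effect was 1.11 early and 0.76 late, 0.74 without the 4 arrays. Within slides the medians were 1.08 and 0.67. None of these 3423 genes was called in the opposite direction late. They were chosen for a large early effect, which can overstate their early medians. A smaller late median or share therefore does not by itself show fading.

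The difference itself passed the test in 2388 of 18876 genes (12.7%), with limma and a Benjamini-Hochberg adjusted p under 0.05. Of these, 1982 were higher late than early (10.5% of the genes tested) and 406 lower (2.15%), and 933 (4.94%) differed by at least 2-fold, 854 of them higher. This count rests on the 4 day 30 arrays. Without them limma called 0 genes, with a smallest adjusted p of 0.0624, while 2213 genes (11.7%) had an unadjusted p under 0.05. The median standard error went from 0.219 to 0.241. Day 25 alone against the early days gave 36 genes (0.191%), and day 30 alone gave 4558. The 4 day 9 controls on a slide of their own mattered too, since 606 genes were called without them. Within slides 0 genes were called, 817 (4.33%) had an unadjusted p under 0.05, and 1194 of the called genes (50%) had the same sign. The median standard error within slides was 0.373. The part of the slide or the scan day in the 2388 calls was not tested apart from these values.

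The share of calls that were higher was 83% with the array median as the scale. It was 60.5% when arrays were scaled to their 75th percentile, 56.1% when scaled to the probes well above background on all arrays, 62.8% after quantile normalization, 66.4% with a reference array and 74.9% in the authors' processed values, with 2518, 2641, 2650, 2604 and 1782 genes called. It was 99.9% of 8611 calls with scaling to the spike-in probes and 94.6% of 10266 with normexp background correction, which moved the median difference of all genes from 0.01 to 0.74 and 0.45. Spike-in scaling also moved the median early effect of all genes from 0.03 to -1.21 and the late one from 0.07 to -0.44. Early and late effects called higher, above and below, are relative to the array median, and their direction depends on that scale.

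**Figure D1:**
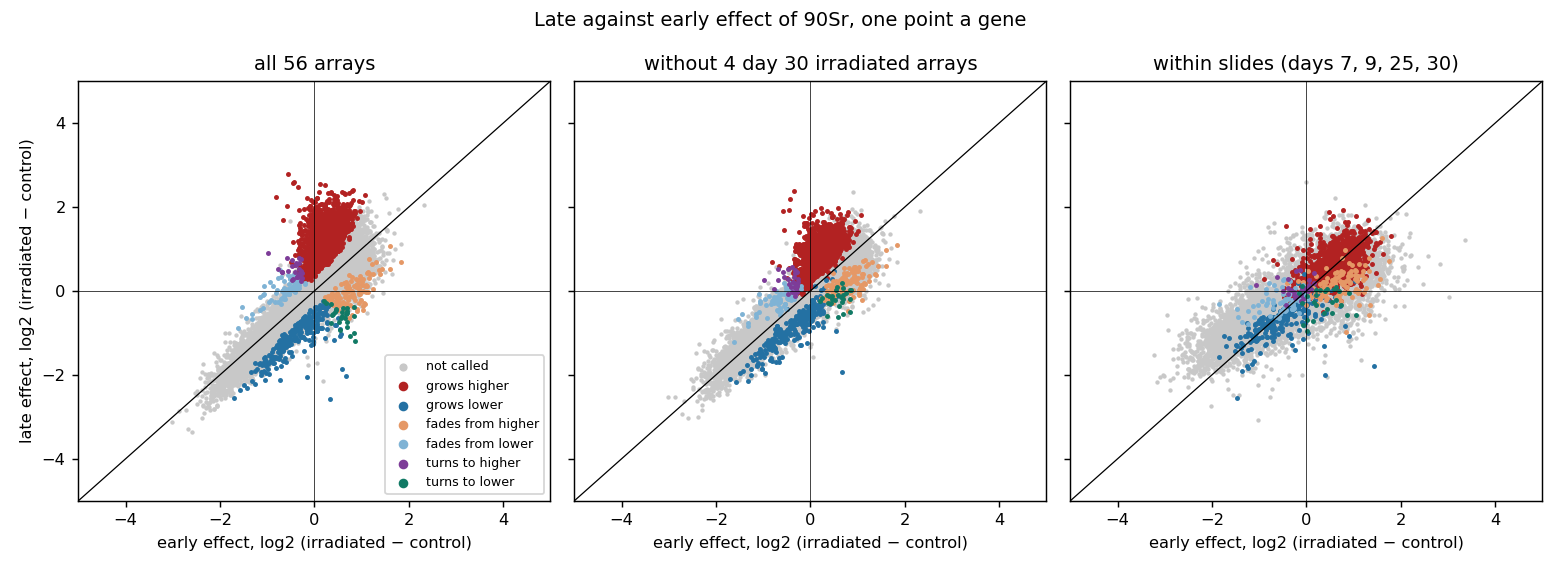
Each point is a gene, with its early effect on the x axis and its late effect on the y axis (log2, irradiated minus control), colored by the pattern of the called genes. The left panel uses all arrays, the middle panel leaves out the 4 day 30 arrays of the other scan day, and the right panel uses only contrasts within slides. On the diagonal the early and late effects are equal. The 1878 genes of the grows higher pattern lie above it with all arrays (median difference 0.95) and on both sides of it within slides (median -0.04).

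Among the called genes, 1878 grew higher, with a late effect that was called and larger in size than the early one, and 261 grew lower. A further 115 faded from a higher early effect, 73 faded from a lower early effect, 29 turned from lower to higher and 27 from higher to lower, and 5 fitted none of these. The counts with at least a 2-fold difference were 835, 32, 27, 7, 12 and 19 in the same order, and 1 for the rest. The patterns use the same values as the call and add no evidence to it.

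The 1878 genes that grew higher had a median effect of 0.26 early and 1.24 late. The named genes of largest difference are better known from other tissues. Etv5, an ETS family transcription factor, had effects of -0.04, 0.67, -1.96, 1.79 and 3.37 in order of day, and a late minus early difference of 3.02 ± 0.45 (SE, adjusted p = 0.0002). Its probe lies on chromosome 16, 22381387 to 22381446 (mm9). Ntrk2, the receptor for brain-derived neurotrophic factor, differed by 2.83 ± 0.58, Sprr1a, a protein of the cornified envelope of skin, by 2.62 ± 0.52, and Ces2b, a carboxylesterase, by 3.05 ± 0.72. These 4 differences were positive in each of 31 or 32 alternatives and in each fit with 1 array left out. The genes were picked for the size of the difference, and the alternatives reuse the same arrays. Deviations of Etv5, Ntrk2 and Sprr1a from their group means correlated with r from 0.778 to 0.856 over the 56 arrays, so these 3 are not separate readings. With Ces2b r was from 0.164 to 0.486. Without the 4 day 30 arrays they were 2.38, 2.74, 2.5 and 1.5, and within slides 0.87, 1.26, 0.77 and 1.22, with standard errors of 0.64, 1.01, 0.83 and 0.84. No irradiated array of day 4 had the Ces2b probe well above background, so its level there is only an upper limit. The Ntrk2 probe used was well above background on all 56 arrays. Other Ntrk2 probes did not pass the filter. They were well above background on 6 and 2 arrays and gave differences of 0.44 and -0.63.

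From early to late, Etv5 fell by 2.5 ± 0.31 in the controls and changed by 0.52 ± 0.31 in the irradiated mice (adjusted p = 0.435 in limma). In controls its level was 8.91, 9.09, 8.16 and 8.54 at day 4. It ranged from 7.89 to 9.52 at day 7 (median 9.07), from 9.50 to 12.9 at day 9 (median 11.9), from 6.76 to 8.54 at day 25 (median 7.47) and from 5.13 to 7.56 at day 30 (median 7.15). In irradiated mice it was 8.40, 8.50, 8.91 and 8.75 at day 4. It ranged from 8.62 to 9.92 at day 7 (median 9.69), from 9.18 to 10.4 at day 9 (median 9.47), from 8.38 to 10.9 at day 25 (median 9.14) and from 8.0 to 11.55 at day 30 (median 10.3). The controls were high at day 9 and low at days 25 and 30, and the groups did not overlap at day 30. All 6 irradiated mice at day 30 and 5 of 6 at day 25 were above every control of their day, while 4 of 6 at day 9 were below every control. The lowest 4 controls of the series were all late controls.

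Over the pattern as a whole the controls moved more. From early to late, the genes called higher fell by a median of 0.74 in the controls and rose by a median of 0.18 in the irradiated mice. Of the 1982 genes, 1774 were called between early and late controls, and 50 between early and late irradiated mice. Over all genes, 4377 were called between late and early controls (3474 lower, 903 higher) and 255 between late and early irradiated mice. The irradiated mice moved more than the controls in 13.5% of the called genes, against 38% of all genes tested. The mean level of the 1878 genes was between 3.98 and 4.1 on the 4 day 9 controls that filled a slide, and 2.90 and 3.33 on the other 2 controls of that day. It was between 4.39 and 4.62 on the 4 day 30 irradiated arrays of the other scan day, and 3.13 and 3.78 on the other 2. Late controls lay between 2.09 and 2.93. On the slides that held both groups, the irradiated arrays exceeded the controls by 0.53, 0.69, 0.46 and 0.74 at days 7, 9, 25 and 30. The deviations of a member from its group mean correlated with those of the other members with a median r of 0.741 over the 56 arrays, against -0.06 for genes outside the pattern, all of which share the arrays and their scaling.

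**Figure D2:**
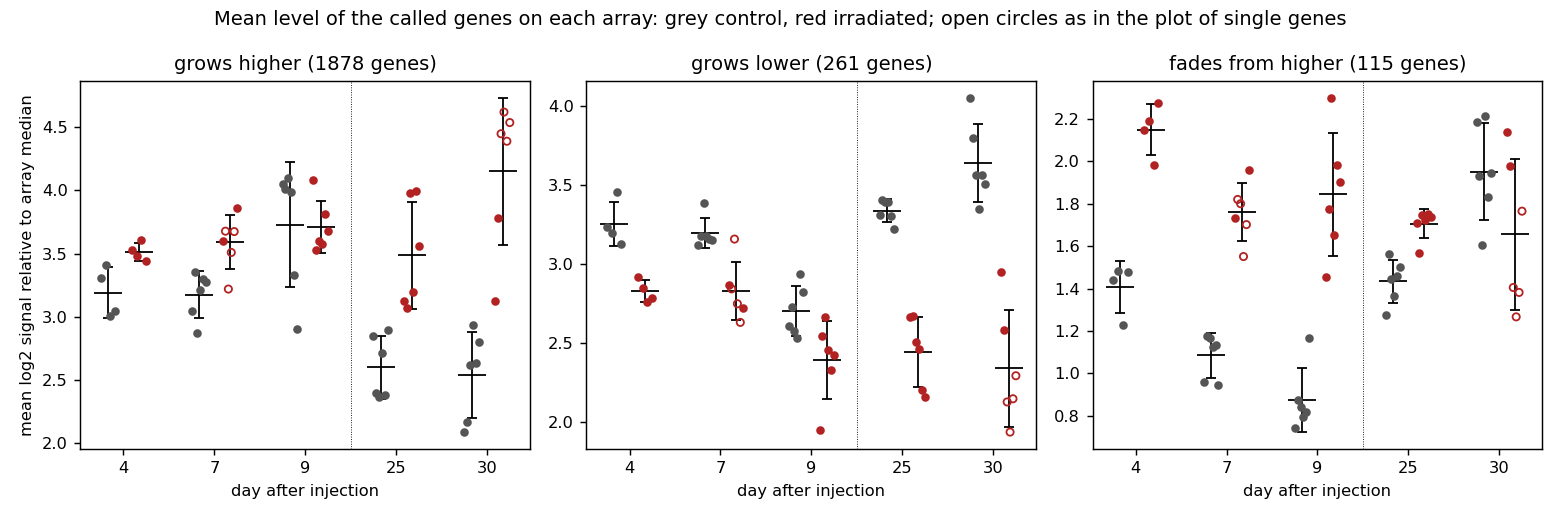
Points are arrays and show the mean log2 signal, relative to the array median, of the genes of a pattern (y axis) at each day after injection (x axis), with controls in grey and irradiated mice in red. Open circles mark irradiated arrays scanned on another day than the controls of their day, and bars show the group mean ± SD. In the left panel the 4 open circles at day 30 lie between 4.39 and 4.62, above every other array, and 4 of the 6 day 9 controls lie between 3.98 and 4.1.

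A second probe of the same gene was used as a further reading. Of the genes called higher, 368 had another probe that passed the filter, and its difference had the same direction in 197 (53.5%), with a median of 0.03 against 0.85 for the first probe. Over all genes the share was 58.8%. For the genes called lower it was 82% (50 of 61), with medians of -0.24 and -0.64. For early effects of at least 2-fold, second probes had the same direction in 96.2% of the genes called higher and 79.3% of those called lower. Hmox1, the heme oxygenase that breaks down heme, shows the first case. The probe that was used gave a difference of 1.39 ± 0.27 and another probe, also well above background on all 56 arrays, gave 0.14.

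The 29 genes that turned higher and the 73 that faded from lower had median differences of 0.83 and 0.61, which were 0.59 and 0.44 without the 4 arrays and 0.17 and 0.20 within slides. Their controls moved by medians of -0.75 and -0.44 from early to late, and their irradiated mice by 0.14 and 0.13. Tubgcp6, part of the complex from which microtubules grow, had effects of -0.55, -1.09, -0.69, -0.06 and 1.12 in order of day, and a difference of 1.31 ± 0.26 (adjusted p = 0.0007). No irradiated array of days 7 and 25 had its probe (chromosome 15, 88930167 to 88930226, mm9) well above background. Cpne2, a calcium-dependent membrane-binding protein, differed by 1.14 ± 0.20 (0.45 on a second probe, well above background on 17 arrays), Scrt2, a zinc finger repressor, by 1.1 ± 0.21, and H2-M11, a nonclassical class I gene, by 1.07 ± 0.21. Cpne2 fell by 1.08 in the controls from early to late and differed by 0.05 in the irradiated mice. Tiam1, which activates the GTPase Rac1, was lower at every early day (-0.74, -0.79 and -1.69). It had an effect of -0.40 at day 25 and 0.62 at day 30, a difference of 1.18 ± 0.26. The day 30 effect was -0.18 with the 2 irradiated arrays scanned with the controls, and the difference 0.79 without the other 4 and 0.01 ± 0.36 within slides. Zfp712, a zinc finger gene, had effects of -1.64, -1.47 and -1.51 early and -0.64 and -0.10 late, with probes not well above background in the irradiated mice of days 7 and 30.

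Cdkn1a was among the genes that faded from higher. It encodes p21, the inhibitor of cyclin-dependent kinases through which p53 stops the cell cycle. Its effects were 1.87, 1.65, 1.99, 1.23 and 0.15 in order of day, and the difference was -1.15 ± 0.22 (95% confidence interval -1.59 to -0.70, adjusted p = 0.0006). The probe lies on chromosome 17, 29237377 to 29237436 (mm9).

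Its control levels were -0.67, -0.83, -0.83 and -1.19 at day 4. They ranged from -1.37 to -1.09 at day 7 (median -1.29), from -1.47 to -0.74 at day 9 (median -1.05), from -0.81 to 0.10 at day 25 (median -0.61) and from -1.50 to 0.45 at day 30 (median -0.67). The irradiated levels were 0.97, 1.14, 1.12 and 0.73 at day 4. They ranged from -0.17 to 1.1 at day 7 (median 0.37), from 0.59 to 1.14 at day 9 (median 0.94), from 0.35 to 1.38 at day 25 (median 0.69) and from -1.13 to 0.45 at day 30 (median -0.61). Every irradiated mouse was above every control of its day at days 4, 7, 9 and 25, and none of 6 was at day 30. From early to late Cdkn1a fell by 0.63 ± 0.16 in the irradiated mice (adjusted p = 0.033 in limma) and rose by 0.52 ± 0.16 in the controls (adjusted p = 0.012).

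At day 30 the 4 irradiated arrays of the other scan day were at -0.76, -1.05, -1.13 and -0.45, within the range of the controls, and the other 2 were at 0.45 and 0.26. With these 2 the day 30 effect was 0.95. Without the 4 arrays the difference was -0.75 ± 0.22, with an adjusted p of 0.133 in limma, and within slides it was -0.33 ± 0.36. Day 25 alone gave -0.61 ± 0.28 (adjusted p = 0.359). The probe used was well above background on 40 of 56 arrays. A second probe gave -1.11, from 2.08 early to 0.97 late, and was well above background on 10 of 56 arrays. Another probe, which did not pass the filter and was well above background on 0 arrays, gave 0.65. The difference of the gene was negative in each of the 31 alternatives run, and the call was lost in 8 of them.

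The other 3 named genes of this pattern were likewise higher early. Ccdc48, now named Efcc1, an EF-hand and coiled-coil protein, had effects of 0.98, 1.22 and 0.98 early, 0.73 at day 25 and -1.29 at day 30, and its probe was not well above background in the day 7 controls. A second Ccdc48 probe, well above background on 6 arrays, went from 0.89 early to 0.80 late, a difference of -0.09. Hist1h1t, now H1f6, the testis-specific linker histone, had effects of 0.86, 1.26 and 0.96 early and 0.15 and -0.18 late, a difference of -1.04 ± 0.30 that was -1.0 without the 4 arrays. Hlx, a homeobox factor, differed by -1.01 ± 0.33 and by -0.64 without them. Its day 30 effect was -0.59 with the 4 arrays of the other scan day and 0.51 with the other 2.

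The 115 genes of this pattern had a median difference of -0.78 with all arrays, -0.57 without the 4 arrays and -0.48 within slides, where 107 of 115 were negative. For the 1878 genes that grew higher, 804 had the same sign within slides. The within-slide arrays were among those that chose both sets, so these counts are a description. On the slides with both groups, the mean of the 115 genes was higher in irradiated arrays by 0.78 and 0.62 at days 7 and 9 and by 0.16 and 0.17 at days 25 and 30. The probes were dim, since 34 of the 115 were well above background on all 56 arrays. These genes too moved in the controls, by a median of 0.53 from early to late, and in the irradiated mice by -0.25.

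**Figure D3:**
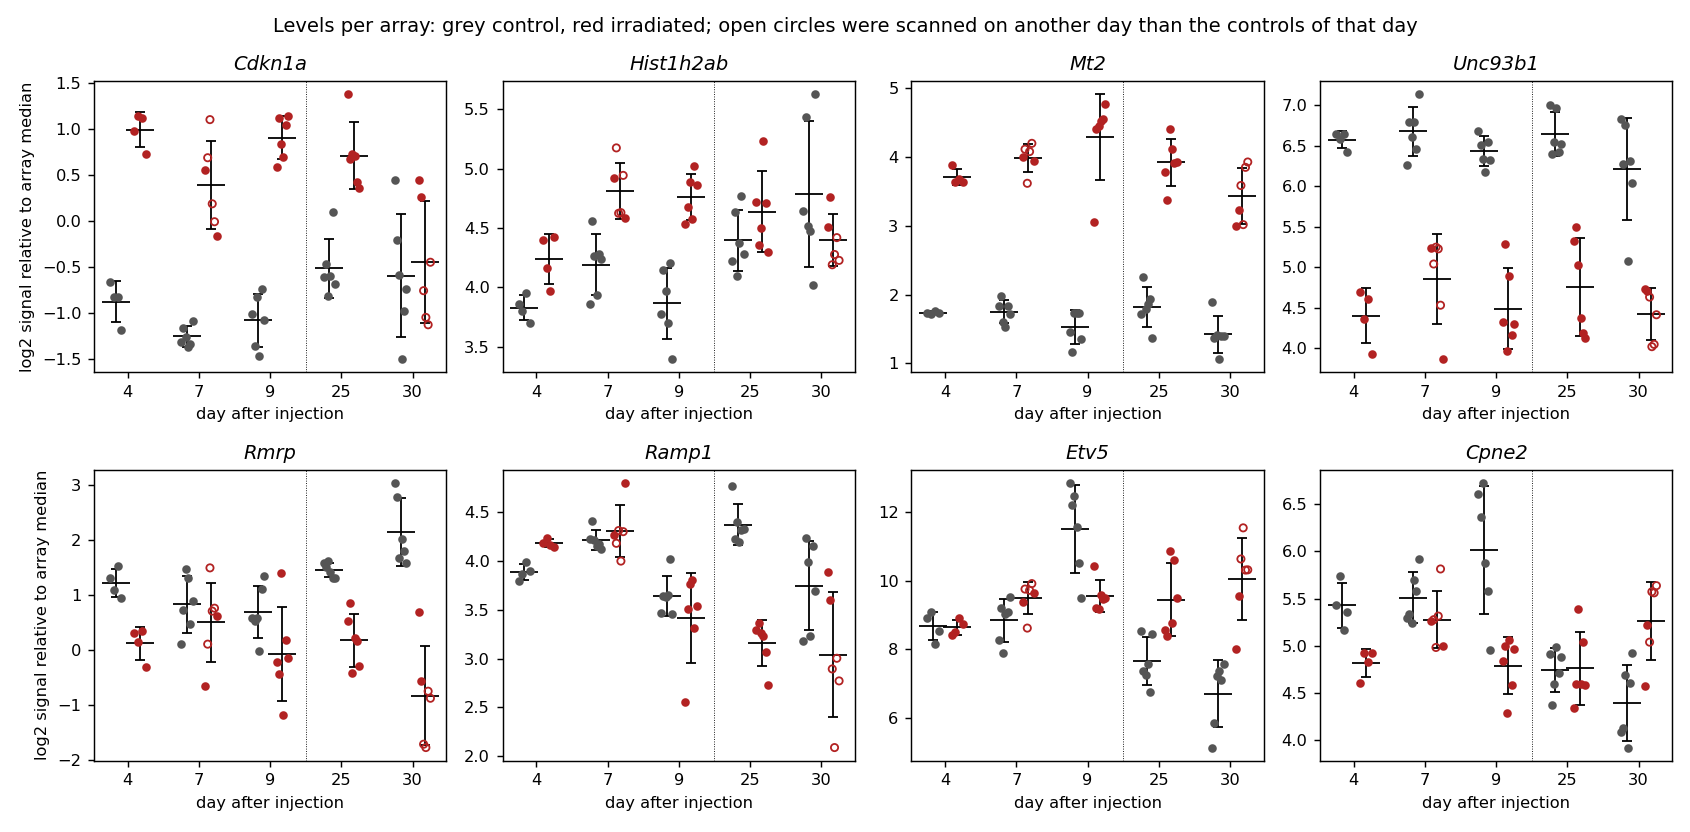
Each panel is a gene and each point an array, with the log2 signal relative to the array median on the y axis and the day after injection on the x axis, controls in grey and irradiated mice in red, and bars for the group mean ± SD. Open circles are irradiated arrays scanned on another day than the controls of their day. Cdkn1a was above every control in all irradiated mice until day 25 and in 0 of 6 at day 30, while Mt2 and Unc93b1 stayed apart from the controls at all 5 days.

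Of the p53 targets listed, 25 were tested, 4 were called lower and 0 higher (16% called, against 12.7% of all genes). The other 3 were Bax, a pore-forming inducer of apoptosis, Dcxr, a carbonyl reductase, and Aen, a p53-induced nuclease. They grew lower instead of fading. Bax had an early effect of 0.01 and a late effect of -0.61, a difference of -0.62 ± 0.17 that was -0.44 without the 4 arrays and 0.03 within slides, and above 0 with spike-in scaling (0.12) and with normexp (0.82). Dcxr went from -0.55 to -1.46, with -0.92 ± 0.22 on the probe used and -0.81 on another, and its probe was not well above background in the irradiated mice of day 30. Aen went from -0.37 to -0.79. The median difference of the 25 was -0.04 with all arrays and 0.02 without the 4.

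The p53 targets measured by PCR in the study other than Cdkn1a were not called. Ccng1, cyclin G1, differed by 0.06 (95% interval -0.20 to 0.32). Ddb2, a sensor of ultraviolet lesions, was lower early (-0.86) and late (-0.59) and differed by 0.27 (-0.27 to 0.81). Without the 4 arrays that difference was 0.64 (0.14 to 1.13), with an adjusted p of 0.263 in limma, and within slides it was 0.80 ± 0.46. Bbc3, which encodes the apoptosis inducer PUMA, differed by -0.15 (-0.52 to 0.22), and by 1.08 with normexp. Actb, used as the PCR reference, differed by 0.07 (-0.21 to 0.34).

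Mt2 and Unc93b1, which the methods also name, had large effects that did not pass the test for a difference. Mt2, a metallothionein that binds zinc and scavenges radicals, had effects of 1.97, 2.24, 2.76, 2.10 and 2.01, and all 28 irradiated mice were above every control of their day. The difference was -0.27 (95% interval -0.63 to 0.09), and -0.43 (-0.82 to -0.04) without the 4 arrays, with an adjusted p of 0.368 in limma. Unc93b1, which carries nucleic acid-sensing Toll-like receptors to endosomes, had effects of -2.18, -1.82, -1.94, -1.89 and -1.79, and all 28 irradiated mice were below every control of their day. Its difference was 0.14 (-0.33 to 0.60), and 0.29 without the 4 arrays.

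Of 53 histone genes tested, 6 were called lower and 1 higher, where 2.15% and 10.5% of all genes were, and the median difference of the list was -0.08. Hist1h2ab, now H2ac4, a replication-dependent H2A gene, had effects of 0.41, 0.62, 0.90, 0.24 and -0.39. Its irradiated levels at day 4 were 4.4, 4.16, 3.97 and 4.43, against 3.86, 3.80, 3.95 and 3.70 in the controls. At day 30 they ranged from 4.19 to 4.76 (median 4.35), against 4.02 to 5.63 (median 4.58). All irradiated mice were above all controls of their day until day 9, 1 of 6 was at day 25 and 0 of 6 at day 30. The difference was -0.72 ± 0.17 (adjusted p = 0.004), -0.60 without the 4 arrays and -0.76 ± 0.33 within slides, and it was above 0 with spike-in scaling (0.02) and with normexp (0.55). Hist4h4, Hist2h2bb, Hist1h4j and Hist1h1e were called lower by 0.41 to 0.60, and Hist1h4h, now H4c8, was called higher (0.94, and -0.01 within slides). Histone genes of a class are close copies, so a probe may read several of them.

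Of 35 cell cycle and proliferation genes tested, 17 were called higher early and 19 late, where 31.3% and 38.4% of all genes were. These calls are relative to the array median, and spike-in scaling lowers every early and late effect. For the difference 2 of the 35 were called (5.71%). Cdca3, a trigger of mitotic entry, had effects of 1.04, 1.56, 2.23, 0.93 and 1.20. Irradiated mice were above every control in 4 of 4, 6 of 6, 6 of 6, 5 of 6 and 6 of 6 in order of day. It faded by -0.55 ± 0.18 (adjusted p = 0.036), by -0.63 without the 4 arrays and by -1.03 ± 0.33 within slides, though the sign turned with spike-in scaling (0.19) and normexp (0.18). Ccne1, cyclin E1, grew higher by 0.82 ± 0.17, by 0.64 without the 4 arrays, and stood at -0.05 within slides.

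Genes that sense and repair DNA damage were lower in blood at both times, 27 of 42 early and 28 of 42 late, where 37.4% and 38% of all genes were called lower. For the difference 5 were called higher and 1 lower (14.3%). Chek1, the checkpoint kinase below ATR, differed by 1.03 ± 0.26 and by 0.71 without the 4 arrays, with a probe not well above background in 3 of the 10 groups. Bard1, the partner of BRCA1, differed by 0.70 ± 0.23, but another of its probes, well above background on 51 arrays, gave -0.29, as did the authors' processed values, which hold that probe (-0.36). Atr, Xrcc4 and Trp53bp1 were also called higher, by 0.80, 0.72 and 0.43. Xrcc1, the scaffold of single-strand break repair, grew lower by -0.48 ± 0.16, by -0.30 without the 4 arrays and by 0.05 within slides, and it was above 0 with spike-in scaling (0.25) and normexp (0.63).

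The 261 genes that grew lower had a median effect of -0.31 early and -1.01 late, with a median difference of -0.66 that was -0.48 without the 4 arrays and -0.09 within slides. Rmrp, the RNA component of RNase MRP, which processes ribosomal RNA, had effects of -1.1, -0.32, -0.76, -1.28 and -2.98. Its probe lies on chromosome 4, 43505847 to 43505906 (mm9). Control levels were 1.30, 1.08, 1.53 and 0.95 at day 4 and 3.03, 2.78, 1.67, 2.00, 1.80 and 1.57 at day 30. Irradiated levels were 0.31, 0.13, 0.34 and -0.31 at day 4 and 0.69, -0.57, -1.71, -1.78, -0.75 and -0.88 at day 30. No irradiated mouse reached the lowest control at day 25 or day 30. The difference was -1.40 ± 0.31 (adjusted p = 0.002), -0.96 without the 4 arrays and -0.13 ± 0.50 within slides.

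Ramp1, which forms the receptor for calcitonin gene-related peptide, was already lower at day 25. Its irradiated levels at day 25 were 3.29, 3.37, 3.27, 3.23, 3.06 and 2.73, all below the controls at 4.2 to 4.77 (median 4.32). At day 30, 4 of 6 were below every control, and at days 4, 7 and 9 the effects were 0.29, 0.09 and -0.23. The difference was -1.01 ± 0.19 (adjusted p = 0.0004), -0.66 without the 4 arrays and -0.34 ± 0.29 within slides. Day 25 alone gave -1.27 ± 0.23 with an adjusted p of 0.014. A second probe, well above background on all 56 arrays, gave 0.06, from an early effect of 0.55 to a late effect of 0.61, so the probes of this gene disagree. Afap1, an actin filament-associated protein, differed by -1.07 ± 0.31, by -0.65 without the 4 arrays and by 0.11 with normexp, and was not well above background in the irradiated mice of day 9.

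Hpn, the serine protease hepsin, was the 1 gene that turned lower and met the naming rule. Its effects were 0.81, 1.16, 0.62, 0.19 and -2.60, a difference of -2.07 ± 0.44 (adjusted p = 0.002). At day 30 the effect was -0.15 with the 2 arrays scanned with the controls and -3.82 with the other 4, and the difference was -0.84 without those 4 and -0.54 ± 0.52 within slides. Its probe lies on chromosome 7, 31883750 to 31883809 (mm9).

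In each list of blood cell markers 3 or fewer were called for the difference. The share was above the 12.7% of all genes for T cell (15%), dendritic cell (17.6%) and progenitor (20%) markers. In the other blood cell lists it was 5.56% or less. The 18 B cell markers tested had median effects of -2.17, -1.71, -2.04, -2.37 and -2.38 in order of day. Of these, 17 were called lower early and 16 late, where 37.4% and 38% of all genes were. The mean level of the 18 markers was between 5.15 and 5.93 in the controls of days 4, 7 and 9 and between 3.11 and 4.78 in the irradiated mice. At days 25 and 30 it was between 4.81 and 5.87 in controls and between 2.79 and 4.70 in irradiated mice, so the groups stayed apart. The median difference was -0.36, -0.23 without the 4 arrays and 0.26 within slides, and 1 marker was called (5.56%). That marker was Pax5, the factor that holds B cell identity, which went the other way (1.20 ± 0.26, and -0.27 within slides).

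T cell markers had medians between -0.70 and -0.43, and 3 of 20 were called for the difference. The coreceptors Cd4 and Cd8b1 grew higher, by 1.61 ± 0.40 and 0.89 ± 0.20, while Cd3e, a chain of the receptor complex itself, grew lower by -0.68 ± 0.20. Without the 4 arrays these were 1.0, 0.48 and -0.45, and within slides -0.14, -0.03 and -0.36, and Cd3e was above 0 with spike-in scaling (0.06) and normexp (1.01). A second Cd4 probe, well above background on 12 arrays, gave 0.07. Of NK and cytotoxic cell markers 0 of 17 were called for the difference in limma (1 at an unadjusted p under 0.05). Of the 17, 12 were called lower early and 13 late, where 37.4% and 38% of all genes were.

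Monocyte markers were lower throughout, with medians from -1.23 to -1.01 and 0 of 20 called by limma (1 at an unadjusted p under 0.05). Dendritic cell markers had medians between -1.1 and -0.98 at the early days and of -1.44 and -1.49 late, and 3 of 17 were called. These were Clec9a of cross-presenting dendritic cells (-0.67 ± 0.21) and Tcf4, the factor of plasmacytoid dendritic cells (-0.59 ± 0.19), both above 0 with spike-in scaling and normexp, and Tcf4 also on a second probe (0.33, well above background on 6 arrays). Zbtb46, a factor of conventional dendritic cells, was higher (0.95 ± 0.24, and 0.89 without the 4 arrays). Of 22 mature neutrophil markers, only Il1r2, a decoy receptor for interleukin 1, was called (0.92 ± 0.30). The list had medians of -0.88, -0.11, -0.23, -0.55 and -0.01, and 0.70 at day 30 with the 2 arrays scanned with the controls. Neutrophil precursor granule genes had 0 of 14 called by limma (3 at an unadjusted p under 0.05) and medians of -0.04, -0.23, -0.16, -0.55 and -0.06, with 0.65 for those 2 arrays.

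Relative to the array median, red cell genes were higher in irradiated mice at each day. Of 39 erythroid and reticulocyte genes, 34 were called higher early and 34 late, where 31.3% and 38.4% of all genes were. The median effects were 0.52, 0.57, 0.97, 0.56 and 1.09, and 0.87 at day 30 with the 2 arrays scanned with the controls. Spike-in scaling moved the median early effect of all genes from 0.03 to -1.21 and the late one from 0.07 to -0.44. It moves every gene alike, so this direction depends on the scale, and list medians were not computed with it. The mean level of the 39 genes at day 30 was between 8.69 and 9.24 in irradiated mice and between 7.71 and 8.19 in controls, without overlap. At day 25 it was between 8.41 and 9.14 against 8.24 and 8.53, with overlap. For the difference 1 of the 39 was called. Heme synthesis genes followed with 14 of 16 called higher at both times and Hmox1 as the only call for the difference. For the 25 genes of ubiquitin and autophagy that act in red cell maturation, 20 were called higher at both times and 0 for the difference in limma (2 at an unadjusted p under 0.05).

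Platelet and megakaryocyte genes had more calls late than early. Their median change in level from early to late was -0.23 in the controls and -0.01 in the irradiated mice. Of 24, 5 were called higher early and 16 late, where 31.3% and 38.4% of all genes were, and 1 was called for the difference (4.17%). The median effects were 0.15, 0.06, 0.18, -0.08 and 0.79, so day 25 did not take part, and the day 30 median was 0.77 with the 2 arrays scanned with the controls. The mean level of the list was between 8.24 and 9.28 in the irradiated mice of day 30 and between 7.78 and 8.36 in the controls, of which the day 9 and day 30 groups were the lowest. Selp, the P-selectin of platelet granules, was the gene called (0.51 ± 0.17, and 0.34 without the 4 arrays). It was lost as a call in 22 of the 56 fits with 1 array left out.

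**Figure D4:**
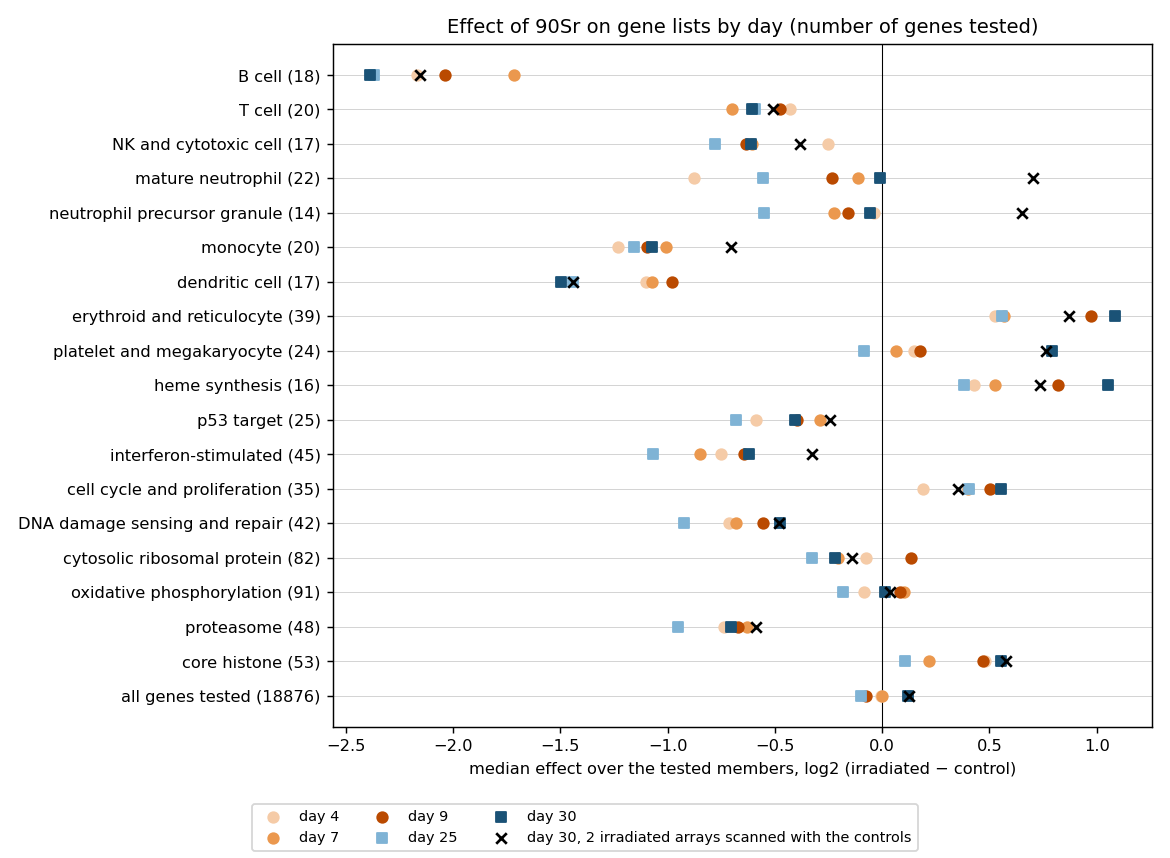
The x axis is the median effect of 90Sr (log2, irradiated minus control) over the tested members of each gene list named on the y axis, with the number of members in brackets. Circles are days 4, 7 and 9, squares are days 25 and 30, and crosses are day 30 with the 2 irradiated arrays scanned with the controls. B cell markers lie between -2.38 and -1.71 at all days, erythroid genes between 0.52 and 1.09, and platelet genes move from 0.18 or less at days 4 to 25 to 0.79 at day 30.

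Lists of housekeeping machinery had few calls for the difference, against 12.7% of all genes. Most members had small differences below 0. Above 0 were 15 of 82 cytosolic ribosomal, 13 of 91 oxidative phosphorylation, 13 of 74 mitochondrial ribosomal and 9 of 48 proteasome genes, and 9569 of all 18876. In that order the list medians were -0.16, -0.17, -0.19 and -0.17. Within slides they were 0.09, -0.01, 0.25 and 0.24. Of 82 cytosolic ribosomal proteins, 27 were called higher and 32 lower early, near the shares of all genes (31.3% and 37.4%). Late, 20 were called higher and 43 lower, where 38.4% and 38% of all genes were. For the difference 4 were called (4.88%), 1 higher and 3 lower. Rps19, a small-subunit protein, went from -0.11 to -0.94 (difference -0.84 ± 0.19, 0.09 within slides and 0.89 with normexp), while Rpl28, of the large subunit, went the other way (1.03 ± 0.28, and 0.10 on a second probe). Proteasome subunits had 37 of 48 called lower at both times, where 37.4% and 38% of all genes were. For the difference 4 were called, among them Psmb6, a catalytic-core subunit (-0.56 ± 0.18, and 0.16 within slides, 0.18 with spike-in scaling and 0.99 with normexp). Of 91 oxidative phosphorylation genes, 37 were called higher and 37 lower early, where 31.3% and 37.4% of all genes were. Late, 30 were called higher and 42 lower, against 38.4% and 38% of all genes, and 4 were called for the difference. Ndufb7, a complex I subunit, went from -0.12 to -0.73, a difference of -0.61 ± 0.15 that was -0.58 without the 4 arrays and -0.18 within slides, and 0.12 and 1.04 with spike-in scaling and normexp. Spliceosome, translation factor and mitochondrial ribosome genes had 1 of 77, 3 of 62 and 3 of 74 called.

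Interferon-stimulated genes were lower at every day, with medians from -1.07 to -0.62. For the difference 1 of 45 was called (2.22%, against 12.7% of all genes). MYC targets had 2 called higher and 2 lower of 30 (13.3%), near the share of all genes. For Srm, spermidine synthase, the probe used gave 1.20 ± 0.22 and a second probe on all 56 arrays gave -0.09, and for Cdk4, the G1 cyclin-dependent kinase, the probes gave 0.97 ± 0.24, 0.00 and -0.18. Hematopoietic progenitor genes had 2 of 10 called (20%). Sox4, a factor of early lymphoid cells, gave 0.88 ± 0.22, with 0.65 and -0.59 on its other probes, and Hlf, a stem cell factor, gave 1.27 ± 0.38 with a probe well above background on 9 of 56 arrays.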

How the data were processed

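Whole blood RNA of 56 mice was measured on Agilent 4x44K v2 mouse arrays with 1 color, Cy3. The authors deposited the intensity of each spot on a linear scale as Feature Extraction wrote it, after its background correction and without scaling between arrays. The submitters' processing notes name version 10.7 of that software and the file headers 11.5.1.1. The authors also deposited normalized values on the log2 scale. Each of those 56 columns (medians from 4.32 to 5.09) held the log2 signal less 1 number per array, and that number was the median over probes of the difference from irradiated replicate 6 of day 30, so scale, centring and direction are known.

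Starting from the intensities, log2 signals had the median over 43020 non-control spots of their array subtracted, and repeated spots of 1 probe were then averaged. A probe was dropped where 25% of the arrays or more flagged it as non-uniform or as not above background, which kept 23419 of 39429 probes. The brightest remaining probe stood for a gene, which gave 18876 of 30199 genes. The 10 groups were fitted together in R 4.3.3 with limma 3.58.1 (lmFit, contrasts.fit, eBayes), with Benjamini-Hochberg adjustment over all genes and 0.05 as the threshold. P-values rest on the spread between the arrays of a group, each of 1 mouse as the study's methods describe the samples. The number of arrays limits their precision. The main fit takes arrays as independent, though arrays of a group often share a slide. That spread is therefore not between mice alone, and differences between slides can enter the contrast without being counted in it. Correlations within slides and blocks used statmod 1.5.0. The steps were tested on simulated data.

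The named genes are up to 4 of largest difference per pattern (called, 2-fold, both late days beyond all early days, probe well above background on at least 28 arrays, a proper gene symbol), up to 3 of smallest adjusted p per gene list, and the genes that the methods measured by PCR. For 2 lists the gene called is not reported here. Others in a list were named because few were called, after their values were seen. The comparison and the 43 lists were chosen with earlier results of these data known. Gene names and probe positions (mm9) were taken from the array files. Of the accessions, 13461 were found in a RefSeq table, and for 968 it gives another symbol. No genome of that build was used, so exon, intron and UTR are not given. Replicate numbers do not pair the mice.

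Alternatives were other scalings, background correction by normexp with an offset of 50, other filters, probe choices and thresholds, slide, scan day or replicate number as a block, array weights, each day or array left out, and, chosen after seeing the data, fits without the arrays that stood on another scan day or slide.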

Additional observations from a re-analysis of the deposited data

Results flagged for a closer look

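In 7 of 130 groups of gene values, 1 array lay apart from the others by a Dixon test, a rate that chance alone gives in about 1 in 20 groups. The highest Cdkn1a level in the irradiated mice of day 25 was 1.38, with the next at 0.73. The lowest Mt2 level in the irradiated mice of day 9 was 3.05, with the next at 4.4. The highest Etv5 level in the irradiated mice of day 9 was 10.4, with the next at 9.59. The highest Cdca3 level in the controls of day 7 was 2.62, with the next at 2.15. For Ramp1 the highest control was apart at day 7 (4.4 against 4.22), day 9 (4.02 against 3.65) and day 25 (4.77 against 4.39).

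The effect of 90Sr differed between late and early days, by the test of that difference, in 2388 genes with all arrays and in 0 without the 4 day 30 arrays of the other scan day. Among the named genes picked by size, the differences were 3.05 for Ces2b, 3.02 for Etv5, 2.83 for Ntrk2 and 2.62 for Sprr1a. For genes that faded from lower or turned to higher they were 1.31 for Tubgcp6, 1.18 for Tiam1, 1.17 for Zfp712, 1.14 for Cpne2, 1.1 for Scrt2 and 1.07 for H2-M11. Toward lower they were -2.07 for Hpn, -1.40 for Rmrp, -1.34 for Ccdc48, -1.15 for Cdkn1a, -1.07 for Afap1, -1.04 for Hist1h1t, and -1.01 for each of Ramp1 and Hlx. All of these calls were lost without the 4 day 30 arrays.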

How the results depend on the processing

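The 2388 genes called, 933 of them with at least 2-fold, became 0 and 0 without the 4 day 30 arrays of the other scan day, 1 and 1 without those and the 4 day 7 arrays, and 0 and 0 with scan day or slide as a fixed block, also with days 7 and 9 alone as early days. They became 281 and 211 with slide as a random block (correlation 0.139), 1041 and 502 with scan day as a random block (0.147), 606 and 330 without the 4 day 9 controls on a slide of their own, 917 and 480 without day 9, 36 and 33 with day 25 as the only late day, 4558 and 2370 with day 30, 5 and 5 with day 30 less its 4 arrays, and 5678 and 1602 with array weights. An adjusted p under 0.01 left 990, and the threshold of the methods (unadjusted p under 0.001 and 2-fold) 724. The early effect, called in 12961 genes, and the late effect, in 14433, were called in 3381 and 6118 at that threshold, in 21174 and 23132 without a filter on dim probes, and in 8634 and 6842 with normexp. The late effect was called in 5901 with slide as a fixed block and in 7317 with day 30 less its 4 arrays. With single arrays left out, the calls ranged from 1840 (without replicate 5 of the irradiated mice of day 25) to 3339 (without replicate 1 of those of day 30), the 2-fold calls from 762 to 1290, the early calls from 12408 to 13080 and the late calls from 14101 to 14630. No paired mice were given by the labels. With the replicate number as a block 2340 genes were called, and 8 of 28 same-numbered pairs had deviations that correlated above 0.1.

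Scaling to the spike-in probes moved the median difference of all genes to 0.74 and called 8611 (5050 with 2-fold), and normexp moved it to 0.45 and called 10266 (5158). Spike-in scaling moves the difference of every gene by the same amount. Less that shift, all 51 genes examined therefore keep their sign by construction, which says nothing about their stability. Less the normexp shift, 39 of 51 kept their sign. Differences of opposite sign were Bax 0.12, Cd3e 0.057, Cdca3 0.19, Clec9a 0.067, Hist1h2ab 0.018, Ndufb7 0.12, Psmb6 0.18, Tcf4 0.14 and Xrcc1 0.25 with spike-in scaling. With normexp they were Afap1 0.11, Bax 0.82, Bbc3 1.08, Cd3e 1.01, Cdca3 0.18, Clec9a 0.11, Dcxr 0.025, Hist1h2ab 0.55, Ndufb7 1.04, Psmb6 0.99, Ramp1 0.40, Rps19 0.89, Tcf4 0.43 and Xrcc1 0.63. In the authors' processed values, which hold another probe of these genes, they were Bard1 -0.36, Cdk4 -0.075, Sox4 -0.73 and Srm -0.16. With slide as a fixed block they were Bard1 -0.18, Cd4 -0.089, Cdk4 -0.014, Hlf -0.65, Pax5 -0.064, Psmb6 0.12 and Selp -0.22, and with days 7 and 9 as early days Bard1 -0.22, Bax 0.026, Ccne1 -0.052, Cd4 -0.14, Cd8b1 -0.029, Cdk4 -0.11, Hist1h4h -0.013, Hlf -0.86, Hmox1 -0.16, Pax5 -0.27, Psmb6 0.16, Rps19 0.094, Selp -0.28, Sox4 -0.089 and Xrcc1 0.051. With day 25 as the only late day Selp was -0.056. Apart from the common shift with spike-in scaling, the cause was not tested for these.

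With 1 array left out, no difference among the 51 genes examined changed sign. The call was lost in 22 of 56 such fits for Selp, 9 for Bard1 and for Cdca3, 8 for Il1r2 and for Xrcc1, 7 for Hlx, 5 for Psmb6, and 1 for Clec9a and for Tcf4. Of the 51 genes, 45 had a weaker call without the 4 day 30 arrays, and the other 6 were not called with all arrays. The median 95% interval of a difference was ± 0.44 with all arrays and ± 0.48 without the 4. These intervals are not adjusted for the number of genes, so they are not the size of change needed for a call.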

Other observations

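Receptor genes of smell and pheromone sensing, which blood is not known to use, were among the genes called higher late. The array holds 1331 olfactory and vomeronasal receptor genes. The filter left 326 to test, of which 82 were called higher and 7 lower (27.3%, against 12.7% of all genes). Their median effects were 0.63, 0.62, 0.24, 0.87 and 1.1 in order of day, and 0.65 at day 30 with the 2 arrays scanned with the controls. The median difference was 0.45 with all arrays, 0.22 without the 4 day 30 arrays and -0.18 within slides. The median change from early to late was -0.36 in the controls and 0.11 in the irradiated mice. The 6 marker lists of other tissues had 1 to 3 calls each, all of them higher except 1 in heart muscle. They included 3 of 10 liver genes (Cyp2e1 1.93, Fgb 1.15 and Tat 0.76) and 2 of 7 skin and epithelium genes (Sprr1a 2.62 and Krt5 0.95). Heart muscle had Myl3 (1.58) and Nppa (0.98) higher and Hspb7 (-0.58) lower, of 10 genes.

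Day 25 alone against the early days gave 36 genes, 27 higher and 9 lower, 33 of which were also among the 2388, and 18 of which have a gene symbol. Pnp2, a purine nucleoside phosphorylase, had effects of 0.51, 0.81 and 0.80 at the early days, -0.31 at day 25 and 0.53 at day 30, a difference at day 25 of -1.01 ± 0.21 (adjusted p = 0.023 in limma). Opn1mw, a cone opsin, had effects of 0.11, 0.34, -0.03, 1.53 and 2.08 and a day 25 difference of 1.39 ± 0.32 (adjusted p = 0.043). Both were chosen for this paragraph after their values were seen.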
